A study of Mus musculus with 56 samples.

Results

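A set of 10 genes of the UDP-glucuronosyltransferase family were followed in the liver of 56 mice. They were given by name: Ugt1a1, Ugt1a5, Ugt1a6a, Ugt1a6b and Ugt1a9 on chromosome 1, Ugt2a3, Ugt2b5 and Ugt2b36 on chromosome 5, and Ugt3a1 and Ugt3a2 on chromosome 15. These are 10 of the 22 genes with a Ugt symbol in the GENCODE annotation of the GRCm38 build, and 10 of the 45513 genes in the count files. The files list 21 of the 22. All 10 passed the filter on low counts, as did 4 of the other 11 Ugt genes listed (Ugt2b1, Ugt2b34, Ugt2b35 and Ugt2b37). The 10 were chosen with results of these counts known, so their levels, differences and calls are given as a description, without p-values.

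The mice were female APOE*3Leiden.CETP mice, 9 to 14 weeks old at the start. They carry human transgenes for the APOE*3Leiden variant with APOC1, and for CETP under its own flanking sequences. All 7 groups were fed a Western-type diet with 15% cacao butter and 0.15% cholesterol, and each group was sampled as 8 livers, controls included. Control mice were gavaged with the vehicle, 5% carboxymethyl cellulose. The compounds were imatinib at 150 mg/kg given 2 times a day, nilotinib at 10 or 30 mg/kg and ponatinib at 3 or 10 mg/kg given 1 time a day, all inhibitors of the BCR-ABL1 kinase. A reference group drank water with 0.12 to 0.20% L-NAME, an inhibitor of nitric oxide synthase, and received the vehicle by gavage. The study asked how these leukaemia drugs act on cardiovascular risk in a mouse without leukaemia, and treatment lasted 16 weeks.

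UDP-glucuronosyltransferases are enzymes of the endoplasmic reticulum that couple glucuronic acid, taken from UDP-glucuronic acid, to bilirubin, steroids, bile acids, phenols and drugs. The product is water-soluble and leaves the liver cell by transporters into bile or blood. The Ugt1a genes are one locus with a row of alternative first exons, each with its own promoter and spliced to the same set of shared exons, so the first exon sets what the enzyme binds. The Ugt2 genes are separate genes in a cluster, and the Ugt3a enzymes are related proteins that, in humans, use other UDP-sugars than UDP-glucuronic acid.

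The structure of the Ugt1a locus set what could be counted. The 5 junctions below join the last 30 bases of each first exon, in lower case, to the first 30 bases of shared exon 2, in capitals (GENCODE transcripts, GRCm38, plus strand, exon 2 at chr1:88215044-88215073). They are shown because only the lower-case side tells the genes apart.
Ugt1a1: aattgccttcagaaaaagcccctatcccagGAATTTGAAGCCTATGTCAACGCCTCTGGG
Ugt1a5: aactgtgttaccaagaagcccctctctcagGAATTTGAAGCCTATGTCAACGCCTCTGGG
Ugt1a9: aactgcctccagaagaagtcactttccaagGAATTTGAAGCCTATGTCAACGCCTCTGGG
Ugt1a6b: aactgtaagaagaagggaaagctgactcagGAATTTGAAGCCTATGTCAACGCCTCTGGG
Ugt1a6a: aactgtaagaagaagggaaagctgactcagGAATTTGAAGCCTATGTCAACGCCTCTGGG
The last bases of Ugt1a6a and Ugt1a6b read alike. Over their whole first coding exons of 859 bases these genes were identical at 833 positions (97%), whereas the other pairs of Ugt1a first exons were 58% to 60.9% identical. Of the 50-base stretches in the Ugt1a6b first coding exon, 47.4% also occur in Ugt1a6a or Ugt1a7c. Of those in the Ugt1a6a first coding exon, 100% occur in Ugt1a6b or Ugt1a7c. The levels of Ugt1a6a and Ugt1a6b are therefore uncertain. For Ugt1a1 the share was 0%, for Ugt1a9 6.63% and for Ugt1a5 7.95%. Among the rest, 41.7% of the 50-base stretches in the Ugt2b5 transcript also occur in Ugt2b37, Ugt2b38 or Ugt2b36. Of those in the Ugt2b36 transcript, only 0.326% occur in Ugt2b5 or Ugt2b38. About 9% of Ugt3a1 and of Ugt3a2 is shared with each other or with Gm5219. The levels of Ugt2b5, Ugt3a1 and Ugt3a2 therefore carry the same reservation.

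**Figure D1:**
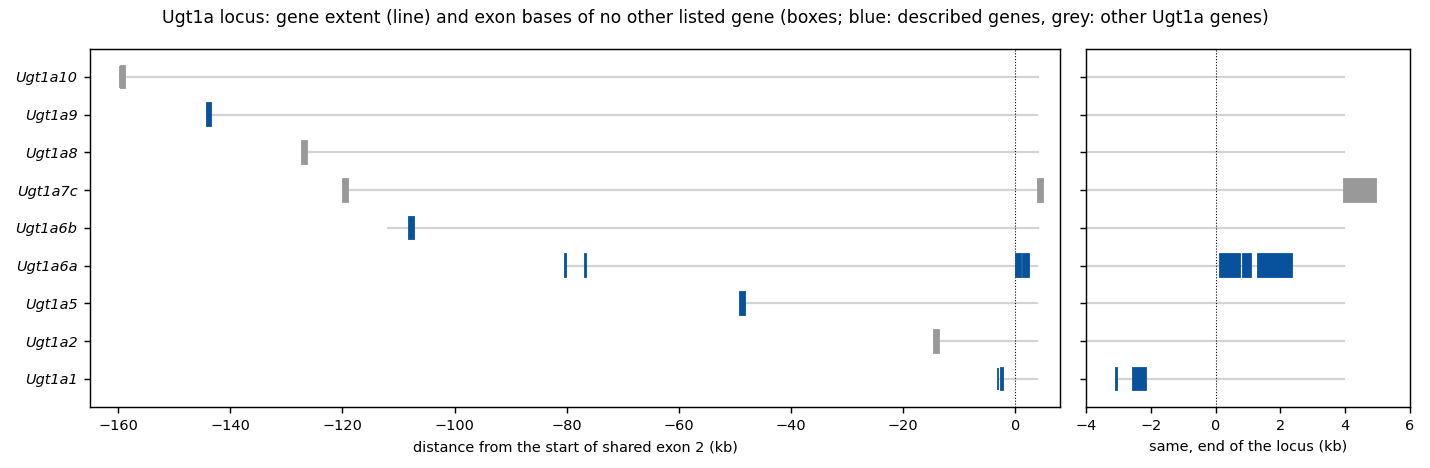
Exon bases at the Ugt1a locus that belong to no other listed gene (boxes), against the distance in kb from the start of shared exon 2; grey lines mark the extent of each gene and the right panel enlarges the end of the locus. For Ugt1a9, Ugt1a6b and Ugt1a5 the boxes are the first exons, whereas most boxes of Ugt1a6a lie beyond the start of exon 2.

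The exon bases that belong to no other listed gene numbered 892 of 2203 for Ugt1a5, 879 of 2190 for Ugt1a9 and 938 of 2382 for Ugt1a6b, all of them in first exons. Ugt1a1 kept 385 of 2224, because an antisense gene, Gm20528, covers much of its first exon. The strand setting of the counting is not given in the sources used here, and without strand the reads of such a pair cannot be told apart. Ugt1a6a was different. Its first coding exon also belongs to a Ugt1a7c transcript in this annotation, and of its 2142 countable bases 619, 255 and 1046 lie between the shared exons, in a transcript with retained introns. Where the authors' annotation had the same transcripts, most bases behind the counts of Ugt1a6a are therefore not in its first exons. The Ugt2 and Ugt3a genes shared no exon base with another listed gene.

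Reads counted on genes ranged from 5342379 to 97473341 per mouse, with a median of 7570238. The highest total belonged to an L-NAME mouse (mouse 2), and leaving it out changed no call of the 10 genes. Reads outside annotated genes made up 7.97% ± 0.42 (SD, n = 8) of uniquely aligned reads in control mice, 8.53% ± 0.61 with ponatinib 3 mg/kg, and between 9.75% and 11.04% on average in the other groups. This share moved with the groups, and its part in the results below was not tested beyond the values given. Ponatinib 10 mg/kg mouse 4 stood apart from its group: over 14314 genes its log2 levels correlated at 0.9338 with the mean of its own group and at 0.9477 with the control mean, the widest gap of that kind among the 56 mice. Where leaving it out changed a call or moved a value by more than 1.5 times, the value without it is given beside the result. This fit without mouse 4 was added after the data were seen. Levels of cell type markers are given as CPM summed over all markers of a type in each mouse. The 7 markers of hepatocytes, such as Alb and Ttr, had group medians of 109100 CPM in control and 131700 with ponatinib 3 mg/kg. Their medians were 85720 with nilotinib 30 mg/kg, 91010 with L-NAME and 102700 to 118100 in the rest. Kidney markers reached at most 0.111 CPM. Those of sinusoidal endothelium had medians of 165 CPM in control, 234 and 240.1 with nilotinib 10 and 30 mg/kg and 125 to 201 in the rest, and those of lymphocytes 34.4 CPM in control, 20.0 with imatinib, 23.3 with ponatinib 10 mg/kg and 35.1 to 47.4 in the rest. Markers of Kupffer cells and macrophages had group medians of 316 CPM in control, 313 with imatinib and 459 to 531 elsewhere, and those of intestine 84.3 CPM in control and 123 to 160 in treated groups, with no marker of these lists at 0 throughout a group. Their part in the results was not tested. In bulk tissue, fewer cells of a type and less RNA per cell cannot be told apart.

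Levels are given in CPM, reads scaled to 1000000 counted reads per library after TMM correction of the library sizes. Per kb of countable exon, Ugt1a1 stood highest in control liver, at 740 ± 149 CPM per kb (SD, n = 8), a value that rests on its 385 countable bases. If reads were counted by strand, the bases under Gm20528 count too, and the value is lower. Its place above the other genes therefore depends on a setting that is not known. Ugt2b36 (255 ± 21.0) and Ugt2b5 (207 ± 27.7) followed and overlapped each other. Ugt3a2 (130 ± 9.47 CPM per kb), Ugt2a3 (97.4 ± 18.6), Ugt1a5 (78.3 ± 34.0) and Ugt1a9 (69.4 ± 34.3) formed a middle range in which each overlapped the next. Ugt1a6b, Ugt3a1 and Ugt1a6a were lowest, at 24.2 ± 2.35, 18.3 ± 2.85 and 10.9 ± 6.79 CPM per kb. The value of Ugt1a6a is divided by 2142 countable bases, most of them in the retained-intron segments described above. Its place below the other genes therefore depends on the annotation used for counting, which is not known. Ugt1a5 and Ugt1a9 thus varied widely among control mice, and Ugt3a2 little.

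As compared to control, the number of the 10 genes called lower (edgeR, Benjamini-Hochberg adjusted p below 0.05 over 14314 genes) was 7 with L-NAME, where 6.22% of all genes tested were called lower, 5 with nilotinib 30 mg/kg (3.4% of all genes), and 4 with ponatinib 10 mg/kg (5.71%). For imatinib it was 1 (4.5% of all genes), for nilotinib 10 mg/kg also 1 (0.957%), and for ponatinib 3 mg/kg 0 (0.00699%). The only call in the other direction was Ugt2b5 with imatinib (5.68% of all genes called higher). Nothing is read from these counts, since the genes were chosen with them known. The median log2 difference of the 10 genes was -0.84 with L-NAME, -0.66 with nilotinib 30 mg/kg, -0.49 with nilotinib 10 mg/kg, -0.45 with ponatinib 10 mg/kg, -0.06 with ponatinib 3 mg/kg and -0.11 with imatinib, where the median of all genes lay between -0.02 and 0.03. Without mouse 4, ponatinib 10 mg/kg had 5 of the 10 called lower (8.13% of all genes) and a median of -0.69. All 6 comparisons share the same 8 control mice. When this outside share entered the fit as a covariate, the called genes numbered 2 with L-NAME (Ugt1a1 and Ugt1a9), 1 with ponatinib 10 mg/kg (Ugt1a9), 1 with imatinib (Ugt2b5) and 0 with both doses of nilotinib. In that fit 1.77% of all genes were called with L-NAME, 2.45% with ponatinib 10 mg/kg, 4.51% with imatinib, and 0.105% and 0.72% with nilotinib 10 and 30 mg/kg. The genes that lost their call kept its direction. Ugt3a1 stood at -1.14 with nilotinib 10 mg/kg in that fit, and at -1.02 with L-NAME. Ugt1a1 stood at -0.72 and Ugt1a6b at -0.82 with nilotinib 30 mg/kg, and Ugt1a5 at -1.38 with L-NAME.

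**Figure D2:**
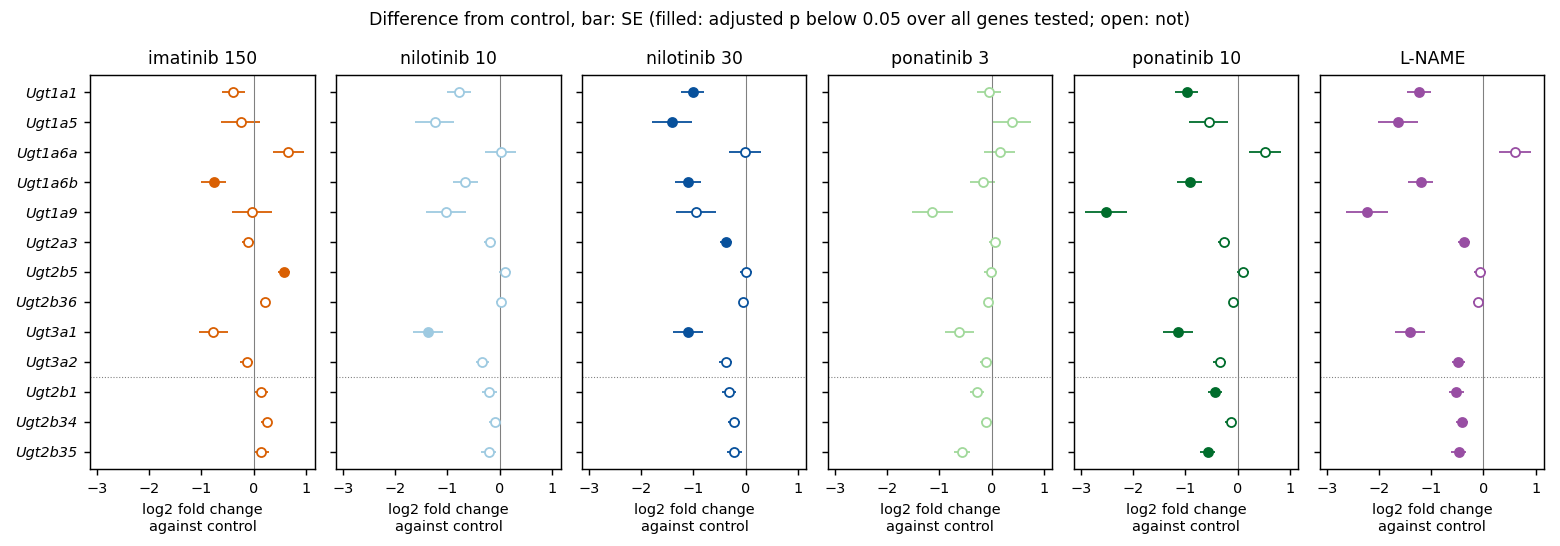
Log2 difference from control (x axis) with its standard error for the 10 genes and, under the dotted line, the 3 abundant Ugt2b genes outside the list, 1 panel per group (n = 8 mice each). Filled points passed an adjusted p of 0.05 over all genes tested; Ugt1a9 lay furthest from 0 with ponatinib 10 mg/kg (-2.52) and L-NAME (-2.23), while Ugt1a6a was called in no panel.

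Ugt1a1, the enzyme that conjugates bilirubin, ran from 189 to 364 CPM in the 8 control mice, with a median of 296. It ran from 81.5 to 195 CPM (median 115) with L-NAME, from 85.0 to 209 (median 144) with nilotinib 30 mg/kg, and from 119 to 193 (median 169) with nilotinib 10 mg/kg. In each of these 3 groups 7 of 8 mice lay below every control mouse. With ponatinib 10 mg/kg it ran from 78.9 to 315 CPM (median 134), and with ponatinib 3 mg/kg from 205 to 364 (median 280). The mouse at 315 was mouse 4, and the other 7 lay below every control mouse, whereas none did at 3 mg/kg. Imatinib split: 6 mice lay between 144 and 217 CPM, and mice 7 and 8 at 362 and 367, the level of the highest controls. These 2 mice also had the lowest shares of reads outside annotated genes in their group, 8.44% and 8.16%. The log2 difference from control was -1.23 (SE 0.23) with L-NAME, -1.01 (SE 0.22) with nilotinib 30 mg/kg and -0.97 (SE 0.22) with ponatinib 10 mg/kg, all 3 called. Nilotinib 10 mg/kg (-0.77, SE 0.22), imatinib (-0.39, SE 0.22) and ponatinib 3 mg/kg (-0.05, SE 0.22) gave no call. Without mouse 4 the difference with ponatinib 10 mg/kg was -1.24 (SE 0.21).

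Ugt1a5 lies between Ugt1a6a and Ugt1a1 on the chromosome and varied more among mice. It ran from 30.9 to 124 CPM (median 72.8) in control mice, from 41.3 to 117 (median 98.0) with ponatinib 3 mg/kg and from 16.7 to 29.7 (median 21.6) with L-NAME. All 8 L-NAME mice lay below every control mouse, as they did for 1.57% of all genes tested. It ran from 6.71 to 53.7 CPM (median 27.6) with nilotinib 30 mg/kg and from 13.1 to 61.6 (median 29.2) with nilotinib 10 mg/kg. Imatinib mice 7 and 8, at 121 and 149.9 CPM, and ponatinib 10 mg/kg mouse 4, at 117, were again at or above most controls, with the other 6 imatinib mice at 21.5 to 49.0 and the other 7 ponatinib mice at 29.3 to 59.4. The log2 difference was -1.64 (SE 0.38) with L-NAME and -1.40 (SE 0.38) with nilotinib 30 mg/kg, both called. The second call was lost without control mouse 7 (-1.24). No call was made for nilotinib 10 mg/kg (-1.24, SE 0.38), ponatinib 10 mg/kg (-0.55, SE 0.37), ponatinib 3 mg/kg (0.39, SE 0.37) or imatinib (-0.25, SE 0.37). Without mouse 4 the difference with ponatinib 10 mg/kg was -0.89 (SE 0.37), also not called.

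Ugt1a6b encodes an enzyme for planar phenols and was the least variable Ugt1a gene in control mice, from 19.1 to 25.5 CPM (median 22.8). With L-NAME it ran from 4.38 to 14.2 CPM, with nilotinib 30 mg/kg from 5.56 to 16.7 and with imatinib from 6.13 to 19.0. In these 3 groups every mouse lay below every control mouse, which held for 1.57%, 1.27% and 0.433% of all genes. The imatinib and control mice were separated by a narrow gap, 19.0 against 19.1 CPM. The log2 difference was -1.20 (SE 0.24) with L-NAME, -1.10 (SE 0.24) with nilotinib 30 mg/kg, -0.91 (SE 0.24) with ponatinib 10 mg/kg and -0.76 (SE 0.24) with imatinib, all called. The imatinib call was lost on leaving out control mouse 7 (-0.75) or imatinib mouse 1 (-0.66), 3 (-0.71) or 5 (-0.72). Ponatinib 10 mg/kg mouse 4, at 26.0 CPM, was above every control mouse, and without it the difference was -1.17 (SE 0.24). Nilotinib 10 mg/kg (-0.66, SE 0.24) and ponatinib 3 mg/kg (-0.17, SE 0.24) were not called.

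**Figure D3:**
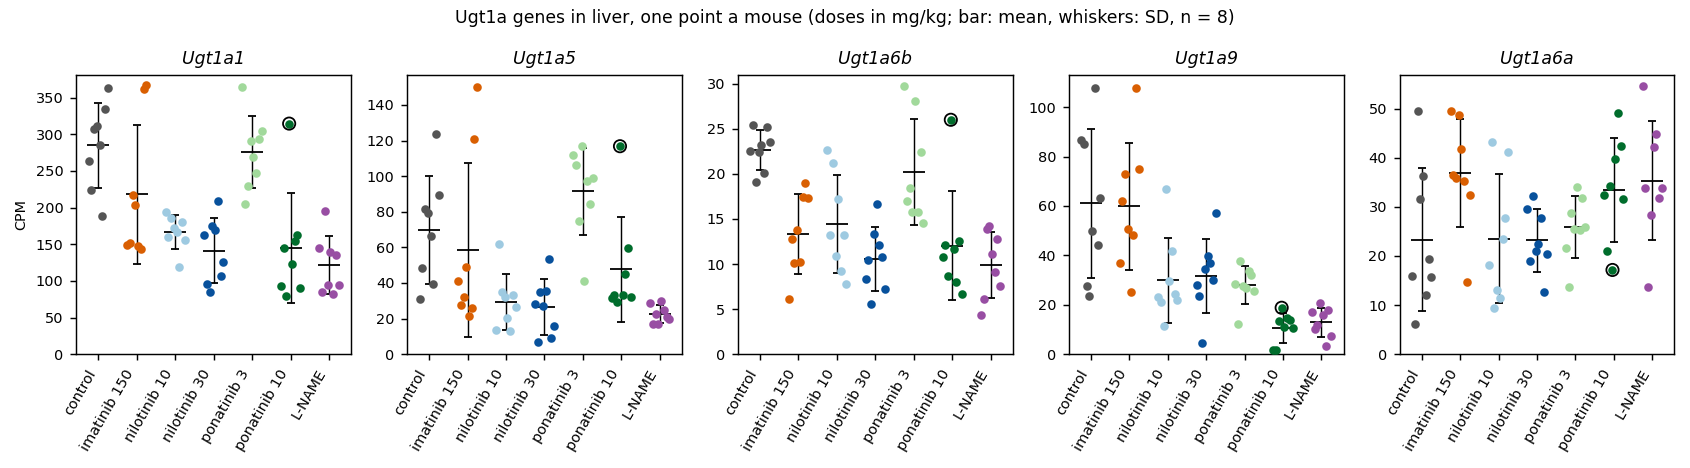
CPM of the 5 Ugt1a genes (y axis, from 0) in each mouse of the 7 groups, with the mean (bar) and SD (whiskers) of 8 mice; circles mark ponatinib 10 mg/kg mouse 4. The circled mouse lies at control level for Ugt1a1, Ugt1a5 and Ugt1a6b (315, 117 and 26.0 CPM) and at 18.8 CPM, below every control mouse, for Ugt1a9.

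Ugt1a9 encodes an enzyme for bulky phenols and drugs, and it showed the largest differences of the 10 genes. Control mice ran from 23.6 to 108 CPM (median 56.6) and imatinib mice from 25.1 to 108 (median 56.4). With ponatinib 10 mg/kg the range was 1.86 to 18.8 CPM (median 12.2), and with L-NAME 3.21 to 20.6 (median 13.7). All 8 mice of both groups lay below every control mouse, as 0.503% and 1.57% of all genes did, and imatinib overlapped control almost fully. Ponatinib 3 mg/kg (12.2 to 37.7 CPM, median 27.9) and both doses of nilotinib (11.3 to 66.8, median 23.7, and 4.50 to 57.3, median 32.2) lay between. The log2 difference was -2.52 (SE 0.41) with ponatinib 10 mg/kg and -2.23 (SE 0.40) with L-NAME, both called. Ponatinib 3 mg/kg (-1.13, SE 0.39), nilotinib 10 mg/kg (-1.03, SE 0.385), nilotinib 30 mg/kg (-0.94, SE 0.38) and imatinib (-0.03, SE 0.38) were not called. Mouse 4 of the ponatinib 10 mg/kg group, at control level for Ugt1a1, Ugt1a5 and Ugt1a6b, had 18.8 CPM of Ugt1a9, and without it the difference was -2.68 (SE 0.43).

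Ugt1a6a, whose countable bases lie mostly in the retained-intron segments described above, was called in no comparison. It ran from 6.07 to 49.6 CPM (median 17.6) in control mice, from 14.7 to 49.6 (median 36.2) with imatinib and from 13.6 to 54.5 (median 33.8) with L-NAME. The groups overlapped throughout. The log2 difference was 0.67 (SE 0.30) with imatinib, 0.61 (SE 0.30) with L-NAME and 0.53 (SE 0.30) with ponatinib 10 mg/kg, the opposite sign to Ugt1a6b in the same mice. Without control mouse 3 the imatinib difference was 0.92 and was called.

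Promoter sequences of the locus are printed for the 4 Ugt1a genes in the RefSeq table (GRCm38.p6, plus strand, the 250 bases before each start), because these genes share their downstream exons but not this stretch. Ugt1a6b and Ugt3a2 have no entry. The search covered both strands of each whole window, from 250 bases before to 50 after the start, for 4 motifs: GCGTG, the core bound by the aryl hydrocarbon receptor AhR, TGACNNNGC, the core of the antioxidant response element, AGGTCA, a core bound by nuclear receptors, and CACGTG, the E-box. Capitals mark matches.
Ugt1a1, chr1:88211709-88211958: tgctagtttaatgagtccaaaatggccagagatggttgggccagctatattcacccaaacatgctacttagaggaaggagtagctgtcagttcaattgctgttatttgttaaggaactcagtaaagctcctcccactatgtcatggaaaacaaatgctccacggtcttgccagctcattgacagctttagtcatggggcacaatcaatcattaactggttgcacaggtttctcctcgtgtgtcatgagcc
Ugt1a5, chr1:88165762-88166011: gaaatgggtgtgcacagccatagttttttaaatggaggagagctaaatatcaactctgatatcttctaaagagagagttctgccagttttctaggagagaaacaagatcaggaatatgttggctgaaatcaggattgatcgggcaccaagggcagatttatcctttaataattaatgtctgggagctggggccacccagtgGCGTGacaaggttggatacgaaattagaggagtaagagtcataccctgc
Ugt1a9, chr1:88070529-88070778: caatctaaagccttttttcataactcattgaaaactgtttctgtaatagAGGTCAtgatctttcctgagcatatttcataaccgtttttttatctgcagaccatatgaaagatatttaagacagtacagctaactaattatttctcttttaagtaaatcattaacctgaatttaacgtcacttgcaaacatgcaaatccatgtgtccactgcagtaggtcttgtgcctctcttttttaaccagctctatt
Ugt1a6a, chr1:88134559-88134808: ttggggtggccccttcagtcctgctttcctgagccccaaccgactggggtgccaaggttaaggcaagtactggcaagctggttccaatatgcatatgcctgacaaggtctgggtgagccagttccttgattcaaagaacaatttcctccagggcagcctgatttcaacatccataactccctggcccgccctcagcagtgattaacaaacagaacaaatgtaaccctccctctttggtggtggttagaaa
AGGTCA was found at bases -201 to -196 of Ugt1a9 and also in the Ugt2b5 and Ugt2b36 windows, where 16.3% of 32851 windows hold it. GCGTG was found at bases -49 to -45 of Ugt1a5 (32.4% of all windows). The windows of Ugt1a1 and Ugt1a6a held none of the 4 motifs. TGACNNNGC (12.4%) and CACGTG (7.15%) were in none of the 8 windows. A match is a stretch of letters and was not tested as a site.

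Ugt3a1 ran from 37.1 to 59.9 CPM (median 48.9) in control mice. It ran from 9.72 to 25.7 CPM (median 19.4) with nilotinib 10 mg/kg, from 11.9 to 32.3 (median 25.2) with nilotinib 30 mg/kg and from 12.3 to 29.0 (median 17.9) with L-NAME. Every mouse of these 3 groups lay below every control mouse, where 0.503%, 1.27% and 1.57% of all genes did so. The log2 difference was -1.37 (SE 0.29), -1.10 (SE 0.28) and -1.41 (SE 0.29) in the same order, all called, and Ugt3a1 was the only one of the 10 genes called with nilotinib 10 mg/kg. With ponatinib 10 mg/kg 7 mice lay between 9.26 and 24.4 CPM and mouse 4 at 67.3, above every control mouse. The difference was -1.14 (SE 0.29), called, and -1.63 (SE 0.24) without mouse 4. Imatinib (12.4 to 53.9 CPM, -0.77, SE 0.28) and ponatinib 3 mg/kg (20.7 to 42.3 CPM, -0.62, SE 0.28) were not called, with 6 of 8 mice of each below every control mouse. Leaving out imatinib mouse 7 or mouse 8 gave a call for imatinib (-0.96 and -0.91).

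Ugt3a2, next to Ugt3a1 and 88% identical to it over the longest coding transcripts, was more abundant and moved less. It ran from 339 to 434 CPM in control mice and from 182 to 365 with L-NAME, with a log2 difference of -0.48 (SE 0.12), called. Nilotinib 30 mg/kg (229 to 389 CPM, -0.38, SE 0.12) and ponatinib 10 mg/kg (228 to 522 CPM, -0.34, SE 0.12) fell just short of the threshold. Mouse 4 was the one at 522, and without it the ponatinib difference was -0.48 (SE 0.12) and was called.

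The Ugt2 genes encode the enzymes for steroids and bile acids. Ugt2b5 was the one gene of the 10 called higher in a group in the edgeR fit of all 56 mice. It ran from 326 to 481 CPM (median 364) in control mice and from 484 to 669.7 (median 581) with imatinib, so that all 8 imatinib mice lay above every control mouse, as 0.706% of all genes did. The log2 difference was 0.58 (SE 0.12), or 49.7% higher. In the other 5 groups the means lay between 368 and 414 CPM and the log2 differences from control between -0.07 and 0.11. Ugt2b36, in the same cluster and 85.4% identical to Ugt2b5, had 6 of 8 imatinib mice above every control mouse (547 to 666 against 451 to 577 CPM) and a log2 difference of 0.22 (SE 0.09), not called. Ugt2a3 ran from 155 to 279.7 CPM in control mice, 138 to 192 with L-NAME and 119 to 190.0 with nilotinib 30 mg/kg. Its log2 difference was -0.38 (SE 0.12) with L-NAME and -0.37 (SE 0.12) with nilotinib 30 mg/kg, both called with overlapping groups. The nilotinib call was lost on leaving out any one of 10 mice, among them control mouse 3 (-0.30), which also ended the L-NAME call (-0.30).

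**Figure D4:**
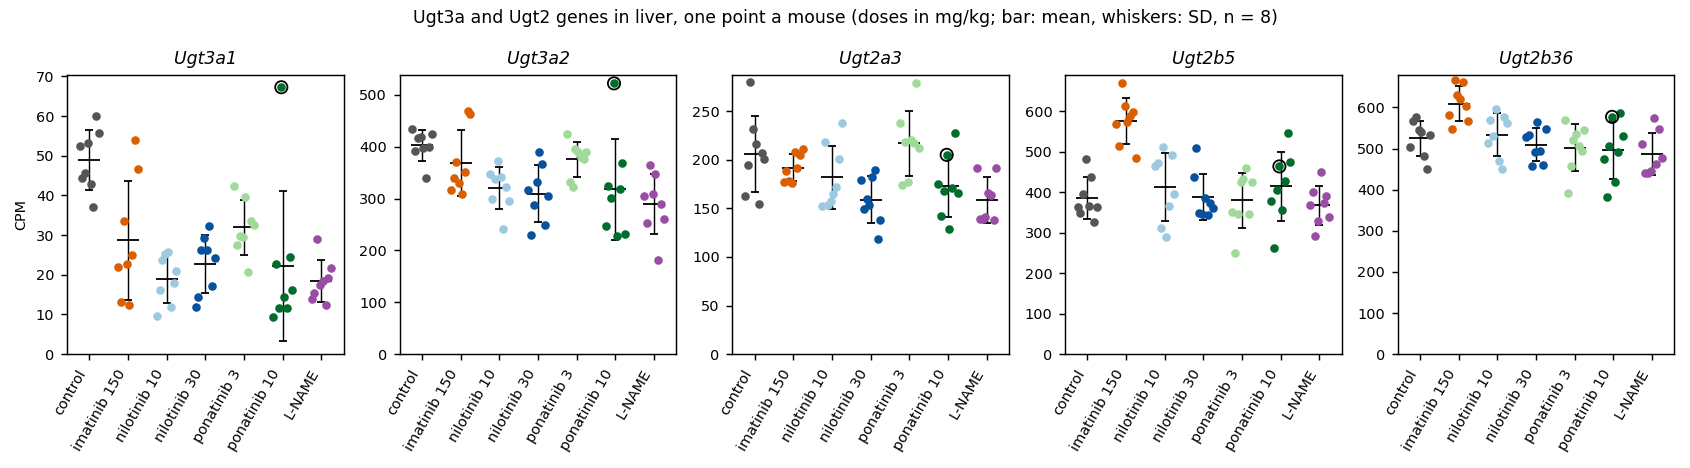
CPM of the Ugt3a and Ugt2 genes (y axis, from 0) in each mouse, with the mean (bar) and SD (whiskers) of 8 mice per group; circles mark ponatinib 10 mg/kg mouse 4. For Ugt2b5 the 8 imatinib mice (484 to 669.7 CPM) lie above the 8 control mice (326 to 481), and for Ugt3a1 the circled mouse (67.3 CPM) lies above every control mouse.

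The doses of each compound were compared with each other directly. Between nilotinib 30 and 10 mg/kg none of the 10 genes was called, nor was any other gene (0%). The largest difference was that of Ugt1a6b, -0.45 with a 95% interval from -0.93 to 0.03, and its size at 10 mg/kg was -0.66 against control. Between ponatinib 10 and 3 mg/kg, 1 of the 10 was called, Ugt1a1 at -0.93 (SE 0.22), where 0.398% of all genes were called lower. Without mouse 4 there were 6: Ugt1a1 (-1.19), Ugt1a5 (-1.28), Ugt1a6b (-1.01), Ugt1a9 (-1.55), Ugt3a1 (-1.02) and Ugt3a2 (-0.38). In that fit 2.12% of all genes were called lower. Leaving out ponatinib 10 mg/kg mouse 1, 3, 5 or 8, or ponatinib 3 mg/kg mouse 1, left none (Ugt1a1 -0.83 to -0.89), as did leaving out the 3 mice with over 14% of reads outside annotated genes.

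The compounds share a nominal dose only for nilotinib and ponatinib at 10 mg/kg. In that comparison, added after the data were seen, 1 of the 10 genes was called, Ugt1a9 at -1.49 (SE 0.40) with ponatinib, where 0.943% of all genes were called lower. For Ugt1a1 the difference was -0.20 with an interval from -0.64 to 0.24, for Ugt3a1 0.23 (-0.33 to 0.79) and for Ugt3a2 -0.01 (-0.25 to 0.23). Without mouse 4 the call was again Ugt1a9 alone (-1.66, SE 0.42, with 1.46% of all genes called lower), while Ugt1a1 stood at -0.46, Ugt1a6b at -0.52, Ugt3a1 at -0.26 and Ugt3a2 at -0.15. At doses that differ, Ugt1a9 was lower with ponatinib 10 mg/kg than with imatinib (-2.49, SE 0.41) and than with nilotinib 30 mg/kg (-1.58, SE 0.40), and Ugt2b5 was lower with ponatinib 10 mg/kg than with imatinib (-0.48, SE 0.12) and higher with imatinib than with nilotinib 30 mg/kg (0.57, SE 0.12). Against imatinib 2 of 10 were thus called (0.678% of all genes were lower), against nilotinib 30 mg/kg 1 (0.803%), and between imatinib and nilotinib 30 mg/kg 1 (1.19% of all genes were higher). Without mouse 4, Ugt1a1 (-0.85) and Ugt2b36 (-0.33) were also called lower than with imatinib, where 0.843% of all genes were. Ugt1a9 against nilotinib 30 mg/kg lost its call without nilotinib mouse 4, 7 or 8 or ponatinib mouse 1 or 8 (-1.39 to -1.59), and Ugt2b5 against imatinib without any of 5 mice (-0.40 to -0.46).

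The other Ugt genes were chosen by symbol. Of the 4 tested, 3 fell with L-NAME, where 6.22% of all genes were called lower: Ugt2b1 from 250.1 ± 19.1 to 175 ± 37.7 CPM (SD, n = 8; log2 -0.52, SE 0.14, edgeR adjusted p = 0.0074), Ugt2b34 from 456 ± 31.4 to 343 ± 45.9 CPM (-0.41, SE 0.11, edgeR adjusted p = 0.0066) and Ugt2b35 from 194 ± 44.4 to 139.7 ± 22.3 CPM (-0.47, SE 0.15, edgeR adjusted p = 0.023). With ponatinib 10 mg/kg (5.71% of all genes called lower), 2 of the 4 fell, Ugt2b1 (-0.43, SE 0.14, edgeR adjusted p = 0.026) and Ugt2b35 (-0.57, SE 0.15, edgeR adjusted p = 0.0052). The Ugt2b1 call with ponatinib 10 mg/kg was lost on leaving out control mouse 6 or ponatinib mouse 1, 2, 5 or 8 (-0.36 to -0.41), and the Ugt2b35 call with L-NAME without control mouse 5 or 6 or L-NAME mouse 2 or 8 (-0.39 to -0.44). None of the 4 passed the test in the other 4 groups, where Ugt2b35 stood at -0.57 (SE 0.15, edgeR adjusted p = 0.13) with ponatinib 3 mg/kg. With the covariate for reads outside annotated genes, none was left for L-NAME or ponatinib 10 mg/kg. Ugt2b37 reached at most 7.81 CPM. The 7 untested genes reached at most 3.06 CPM in any mouse, and Ugt2a2 had no read in any mouse.

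Over the 56 mice, Ugt1a1 correlated with Ugt3a2 (r = 0.87), Ugt3a1 (0.79), Ugt1a5 (0.78) and Ugt1a6b (0.76), given as a description of log2 levels that share library and depth. With each group centred on its own mean these values were 0.83, 0.69, 0.67 and 0.55. Ugt1a9, at the same locus, correlated less with Ugt1a1 (0.56 over all mice, 0.33 centred) and with Ugt1a5 (0.22 and 0.04). Ugt1a6a had negative values with Ugt1a1 (-0.24) and Ugt1a6b (-0.46). Ugt2b5 followed Ugt2b36 (0.79, centred 0.71) and was near 0 with Ugt1a1 (0.07). Outside the family, r was taken over all 56 mice without centring, so differences between groups enter it. The 2 genes most like Ugt1a1 were Sdha (r = 0.93), a subunit of succinate dehydrogenase, and Got2-ps1 (0.89). For the other Ugt1a genes they were Dpyd (0.87) and Fads2 (0.85) for Ugt1a5, Mmp14 and Mut (both 0.82) for Ugt1a6b, Gstt2 and Dmac2 (both 0.77) for Ugt1a6a, and Abcc3 (0.79) and Cd36 (0.78) for Ugt1a9, Abcc3 being an exporter of glucuronides into blood. For Ugt3a1 they were Furin (0.85) and Ptprf (0.83), and for Ugt3a2 Acss3 (0.87) and Aldh6a1 (0.85). For Ugt2b36 they were Pgrmc1 (0.74) and Akr1c6 (0.70), and for Ugt2b5 Cyp1a2 (0.72), a cytochrome P450 that the AhR induces, and Ces1f (0.72). Ugt2b5 and Cyp1a2 were both called higher with imatinib, and their relation within groups was not tested. Atp5a1 (0.78) was the gene most like Ugt2a3.

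The relation to the share of reads outside annotated genes is no part of the rule that named the genes, and was tested within groups (log2 levels and shares centred on group means, 56 mice, 100000 permutations within groups, two-sided, 10 relations). Ugt1a6a was the one gene whose correlation was positive in 7 of 7 groups, from 0.04 to 0.71. Over all mice r was 0.33 (permutation p = 0.0095, adjusted 0.095) and rho 0.44 (permutation p = 0.00041, adjusted 0.0041), and without the 2 farthest mice r was 0.43. The countable bases of Ugt1a6a lie mostly in retained-intron segments, and whether this enters the relation was not tested. For Ugt3a2, r was -0.31 (permutation p = 0.076, adjusted 0.15) and rho -0.41 (permutation p = 0.0051, adjusted 0.025), with r = -0.35 without the 2 farthest mice. Ugt3a1 (rho -0.34) and Ugt1a6b (rho -0.33) also passed by rank (adjusted permutation p = 0.048 for both) and not by r (-0.30 and -0.29, adjusted permutation p = 0.15 for both). Each of these 3 genes had a negative r in 6 of 7 groups, nilotinib 30 mg/kg being the exception. Ugt1a1 had r = -0.34 (permutation p = 0.041, adjusted 0.15), rho = -0.28 (permutation p = 0.058, adjusted 0.12) and r = -0.23 without the 2 farthest mice. Ugt1a9 had r = -0.04 (permutation p = 0.80, adjusted 0.90).

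**Figure D5:**
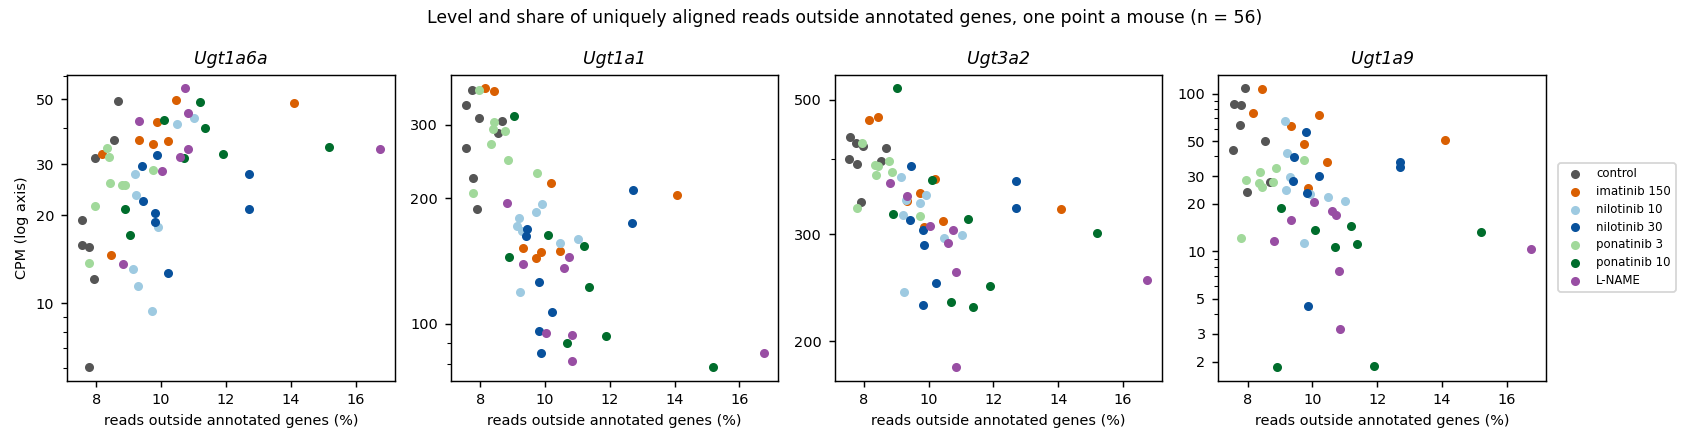
CPM on a log axis against the share of uniquely aligned reads outside annotated genes, in percent, 1 point per mouse, coloured by group (n = 56). Ugt1a6a tends upward with the share, whereas Ugt1a1 and Ugt3a2 tend downward and Ugt1a9 follows the groups (group-centred r 0.33, -0.34, -0.31 and -0.04).

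Genes of related pathways were taken from lists that, like the 10 genes, were drawn up with earlier results of these data known. Their calls in the same fit are a description, given without p-values, to be read beside the shares of all genes called, 6.22% lower and 5.48% higher with L-NAME, 5.71% and 7.13% with ponatinib 10 mg/kg, 4.5% and 5.68% with imatinib and 3.4% and 2.31% with nilotinib 30 mg/kg. The supply of the cosubstrate was followed in 9 genes. UDP-glucuronic acid is made by Ugp2, which forms UDP-glucose, and Ugdh, which oxidizes it, and is carried into the endoplasmic reticulum by Slc35d1. With L-NAME 3 of the 9 fell and 0 rose (list median -0.30, median of all genes 0.02): Ugp2 (-0.70, SE 0.15), Ugdh (-0.84, SE 0.24) and Slc35d1 (-0.44, SE 0.13). With ponatinib 10 mg/kg 3 fell and 0 rose (list median -0.25), Slc35d1 (-0.51, SE 0.13), Ugdh (-0.86, SE 0.24) and Gusb (-0.60, SE 0.21), the last a lysosomal enzyme that removes glucuronic acid. Ugdh went from 183 to 101 CPM on average there. With nilotinib 30 mg/kg Ugp2 (-0.63) and Pgm1 (-0.35) fell, and with imatinib Gusb (-0.76). No gene of the 9 passed the test for nilotinib 10 mg/kg or ponatinib 3 mg/kg. Of the 5 tested genes that turn glucuronate into ascorbate and xylulose, Dcxr rose with imatinib (0.79) and L-NAME (0.57), and no other gene passed in any comparison with control.

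The receptors and factors known to control Ugt genes numbered 17. With imatinib 2 rose, Nr1i3 encoding the receptor CAR (1.13, SE 0.24) and Nr1i2 encoding PXR (0.47, SE 0.15). With nilotinib 30 mg/kg 3 fell and 0 rose (list median -0.26, median of all genes 0.03), Ppara (-1.61, SE 0.30), Rxra (-0.60, SE 0.12) and Hnf4a (-0.53, SE 0.12). With L-NAME Hnf4a (-0.47, SE 0.12) and Ppara (-0.89, SE 0.29) fell and Nr1i3 rose (0.72, SE 0.24). None of the 17 passed for either dose of ponatinib or for nilotinib 10 mg/kg. Without mouse 4, however, Ppara (-0.92, SE 0.29) and Hnf4a (-0.36, SE 0.12) were called lower and Nr1i3 (0.68, SE 0.24) higher with ponatinib 10 mg/kg. Nfe2l2, encoding NRF2, passed in no comparison with control, nor did Ahr.

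Among the genes that these receptors induce, most calls were with imatinib. Of the 4 tested AhR targets 2 rose with imatinib, Cyp1a2 from 523 to 3359 CPM (log2 2.68, SE 0.18) and Cyp1a1 from 0.898 to 29.7 CPM (5.03, SE 0.73), and none passed in any other group (list median 1.31 with imatinib, median of all genes -0.02). Of 16 CAR and PXR targets 9 rose with imatinib and 0 fell (list median 0.63), among them Cyp2c50 (0.79) and Cyp2c37 (1.12), against 1 higher with nilotinib 30 mg/kg (Cyp3a11, 0.45), 1 higher and 1 lower with L-NAME (Cyp3a25, 0.51, and Aldh1a1, -0.49), and 1 higher and 1 lower with ponatinib 10 mg/kg (Cyp3a44, 2.26, and Aldh1a1, -0.65). Without mouse 4 the last counts were 1 and 2, with Cyp2c29 (-0.54) added. Of 12 PPAR-alpha targets 5 rose with imatinib, such as Cyp4a31 (1.46) and Cyp4a10 (1.17), and 0 fell (list median 0.54). With nilotinib 30 mg/kg Cyp4a31 rose (0.85) and Cpt1a fell (-0.63), and Ehhadh fell with ponatinib 10 mg/kg (-0.64) and L-NAME (-0.51). Of 13 NRF2 targets 4 fell and 0 rose with ponatinib 10 mg/kg (list median -0.48, median of all genes -0.01), Txnrd1 (-0.71), Srxn1 (-1.18), Gstm3 (-1.53) and Ephx1 (-0.48), and without mouse 4 Txnrd1, Srxn1 and Gstm3 did (3 of 14 tested). Ephx1 rose with imatinib (0.70) and Osgin1 with nilotinib 30 mg/kg (0.91), and Txnrd1 fell with L-NAME (-0.59). In the same imatinib mice, of the 10 Ugt genes, Ugt2b5 was called higher, Ugt1a6b was called lower and the other 8 were not called.

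Of 12 genes for haem breakdown and the transport of bilirubin and glucuronides, 3 fell with ponatinib 10 mg/kg: Abcc3 (-0.65, SE 0.14), Abcc4 (-1.91, SE 0.48) and Abcg2 (-0.46, SE 0.16), all exporters. Without mouse 4, Slco1b2 (-0.42) and Blvrb (0.55, higher) were also called. With L-NAME Abcc3 (-0.52) and Slco1b2 (-0.45), an uptake carrier, fell. Blvrb, a biliverdin reductase, rose with L-NAME (0.51), imatinib (0.97) and nilotinib 30 mg/kg (0.68). Sulfation, the other main conjugation route, was followed in 16 tested genes. Sult1a1 rose with imatinib (0.52), L-NAME (0.45) and ponatinib 10 mg/kg (0.54), Sult2a7 (4.21) and Sult2a1 rose with imatinib, and Papss2, which makes the sulfate donor, fell with nilotinib 30 mg/kg (-0.45).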

How the data were processed

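Poly(A) RNA of liver was prepared with the NEBNext Ultra RNA kit and sequenced on an Illumina NextSeq. Per the submitters' processing notes the authors aligned reads with TopHat2 2.0.14 and Bowtie2 2.1.0 to GRCm38 and counted them per gene with HTSeq 0.6.1p1, without normalization. The deposited files hold 1 count per gene and mouse. Strand setting, overlap mode and annotation release are not given in the sources used here, and the 45513 gene identifiers were named with GENCODE vM21. HTSeq leaves reads that overlap several genes off every gene (2.70% ± 0.32 SD of uniquely aligned reads, n = 56), and those on no gene were kept out of library sizes (9.83% ± 1.82).

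Counts of all 56 mice were fitted in edgeR 4.0.16 (R 4.3.3) with TMM scaling, filterByExpr (14314 genes) and the robust quasi-likelihood test, without covariates, and p-values were adjusted by Benjamini-Hochberg over all genes. Tested on simulated data for ponatinib 10 mg/kg against control, the fit recovered 57% of changes of log2 1 and 74.7% of those of log2 2. There were 4 false calls among 14072 genes. The simulated counts were independent between genes and held no group difference in the share of reads outside annotated genes. Errors tied to that share are therefore not measured by these 4 calls. Nothing in the labels says that replicates shared a batch, and replicate numbers follow accession order. The genes and lists were chosen with earlier results of these data known. Named genes were the 10 genes, the other Ugt genes, up to 4 genes of each list by adjusted p, any receptor, and the 2 genes most correlated with each member. Some items named by this rule are not reported here. Alternatives were DESeq2 1.42.0, limma 3.58.1 with sample weights, RLE scaling, no filter, 48 mice, the covariate, an unadjusted p below 0.01 and leaving out single mice. Counts were checked for identical libraries, and none were found.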

Additional observations from a re-analysis of the deposited data

Results flagged for a closer look

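For each of the 10 genes in each group of 8 mice, the gap of the highest or lowest mouse to its neighbour was set against the range of the group. The limit for this ratio has a nominal rate of 1 in 20 for independent values, whereas these genes correlate across mice. Of 70 such tests 6 stood out, a count that is therefore not set against chance. In 4 of them the mouse was ponatinib 10 mg/kg mouse 4: Ugt1a1 at 314.6 CPM with the next mouse at 163, Ugt1a5 at 116.8 with the next at 59.4, Ugt1a6b at 26 with the next at 12.5, and Ugt3a1 at 67.25 with the next at 24.4. The others were Ugt1a5 at 61.63 CPM in a nilotinib 10 mg/kg mouse, with the next at 35.1, and Ugt3a2 at 339.2 CPM in the lowest control mouse, with the next at 392. Mouse 4 had 7743412 counted reads, within the range of its group. Its share of reads outside annotated genes, 9.04%, lay near the low end of the group (8.895% to 15.19%, mean 11.04%).

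Differences between treated groups that passed the test in the direct comparison were those of Ugt1a1 between ponatinib 10 and 3 mg/kg (log2 -0.93), Ugt1a9 for ponatinib 10 mg/kg against imatinib (-2.49) and against nilotinib 30 mg/kg (-1.58), and Ugt2b5 between ponatinib 10 mg/kg and imatinib (-0.48) and between imatinib and nilotinib 30 mg/kg (0.57). The doses and schedules of these compounds differ.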

How the results depend on the processing

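No call of the 10 genes or of the other Ugt genes turned its direction under any alternative run. RLE scaling and the fit of 48 mice without the L-NAME group changed no call of the 10 genes, and without the filter on low counts 1 call was lost. With the share of reads outside genes as covariate, the genes called among the 10 went from 2 to 1 with imatinib, 1 to 0 with nilotinib 10 mg/kg, 5 to 0 with nilotinib 30 mg/kg, 4 to 1 with ponatinib 10 mg/kg, 7 to 2 with L-NAME and 1 to 0 between the doses of ponatinib. Directions were kept: Ugt3a1 with nilotinib 10 mg/kg went from -1.37 to -1.14. In that fit the share of all genes called was 0.105% with nilotinib 10 mg/kg, 0.72% with nilotinib 30 mg/kg, 2.45% with ponatinib 10 mg/kg and 1.77% with L-NAME. It was 4.51% with imatinib and 0% between the doses of ponatinib. The other Ugt genes called went to 1 with imatinib and to 0 with ponatinib 10 mg/kg and L-NAME. Limma with sample weights called 6 of the 10 with imatinib, 6 with nilotinib 10 mg/kg, 2 with ponatinib 3 mg/kg, 7 with ponatinib 10 mg/kg, 6 between the doses of ponatinib and 3 between imatinib and nilotinib 30 mg/kg, and 1 other Ugt gene each with nilotinib 30 mg/kg and ponatinib 3 mg/kg. DESeq2 called 4 with imatinib, 3 with nilotinib 10 mg/kg and 2 between the doses of ponatinib. It called 3 between imatinib and nilotinib 30 mg/kg and 1 other Ugt gene with ponatinib 3 mg/kg. With imatinib, limma called 3 of the 10 higher and 3 lower, and DESeq2 called 2 higher and 2 lower. An unadjusted p below 0.01 gave 5 with nilotinib 10 mg/kg, 1 with ponatinib 3 mg/kg, 4 between the doses of ponatinib, 4 between imatinib and nilotinib 30 mg/kg and 1 other Ugt gene with ponatinib 3 mg/kg. Without the 3 mice over 14% of reads outside annotated genes, chosen after seeing the data, the counts were 0 between the doses of ponatinib, 1 between ponatinib 10 mg/kg and imatinib, and 1 other Ugt gene with imatinib.

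Leaving out 1 mouse at a time gave 1 to 3 of the 10 genes with imatinib, 1 to 2 with nilotinib 10 mg/kg, 3 to 6 with nilotinib 30 mg/kg, 0 with ponatinib 3 mg/kg, 4 to 5 with ponatinib 10 mg/kg, 6 to 7 with L-NAME, 0 to 6 between the doses of ponatinib, 1 to 4 between ponatinib 10 mg/kg and imatinib, 0 to 1 between ponatinib 10 and nilotinib 30 mg/kg and 1 to 2 between imatinib and nilotinib 30 mg/kg. For the other Ugt genes it gave 0 to 1 with imatinib, 1 to 2 with ponatinib 10 mg/kg and 2 to 3 with L-NAME. Why the counts moved was not tested. No paired analysis was possible because the labels give no replicate numbers shared by the groups.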
